A study of Mus musculus with 8 samples.

Results

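The genes described here are 46 genes of protein folding and secretion in the endoplasmic reticulum, taken as a list by name. The list was chosen with earlier results of these data known. All 46 genes were found among the 32285 genes of the expression tables. They were followed as raw UMI counts (counts of single captured RNA molecules) in plasma cell-like, germinal centre, follicular and activated B cells and in T cells. The cells were live immune cells sorted from deep cervical lymph nodes of C57BL/6 mice at day 20 after injection into the brain. The saline control library came from mice given DPBS in place of tumour cells. The isotype and anti-CTLA-4 libraries came from mice given GL261, a mouse glioma line, and treated with isotype IgG or with antibody to CTLA-4. The libraries called depleted isotype and depleted anti-CTLA-4 came from GL261 mice that were also given anti-CD20, an antibody that removes B cells. Each of these 5 groups had 1 expression library. No value therefore has a replicate check, no p-value was computed, and every interval printed below is a 95% interval that covers counting error only. The sources used here do not say how many mice stood behind a library, how old they were, or whether the saline control mice received isotype IgG.

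Secretory and membrane proteins enter the endoplasmic reticulum through the Sec61 channel, lose their signal peptide, receive N-linked sugars, and are folded by chaperones and disulfide isomerases before they leave for the Golgi. Proteins that do not fold are recognised by quality control and sent back to the cytosol for degradation. The sensors IRE1 (the product of Ern1), ATF6 and PERK report the load in the unfolded protein response, and IRE1 splices the mRNA of Xbp1, a transcription factor that plasma cells need in order to secrete antibody. In the immune system this machinery is best known from plasma cells, which assemble and export immunoglobulin.

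Part of that response acts through a short promoter element, the endoplasmic reticulum stress response element (ERSE). It joins a CCAAT box, the site of the factor NF-Y, to a CCACG box, to which ATF6 and XBP1 are known to bind. In the RefSeq promoter table (build GRCm38.p6), which gives the bases around each gene's start, 34 of the 46 genes had an entry. An ERSE, spelled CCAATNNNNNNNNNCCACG and searched on both strands, stood in 8 of these 34 (23.5%). It stood in 2 of 74 other genes of the same pathways (2.7%) and in 37 of all 27025 genes in the table (0.137%). The genes were listed for roles in the pathways that this element serves, so the shares are a description and not independent support. Capitals mark the CCAAT and CCACG boxes, and each match is written 5′ to 3′ from its CCAAT end.
Hspa5: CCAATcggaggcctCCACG
Hsp90b1, nearer to the start: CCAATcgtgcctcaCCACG
Hsp90b1, farther from the start: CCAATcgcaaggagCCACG
Calr: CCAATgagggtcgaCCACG
Canx: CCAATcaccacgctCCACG
Pdia6: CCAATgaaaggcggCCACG
Dnajc3: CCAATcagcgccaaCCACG
Creld2: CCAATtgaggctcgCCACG
Derl3: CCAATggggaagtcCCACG
The Hspa5 match lay at chr2:34772025-34772043 on the plus strand, 65 to 47 bases before the start. The Derl3 match lay at chr10:75893242-75893260 on the minus strand, 156 to 138 bases before the start of a gene on the plus strand. The pair in Hsp90b1 ran in opposite directions, at chr10:86705533-86705551 and chr10:86705638-86705656. A shorter relative, ERSE-II (ATTGG, which is the CCAAT box on the other strand, then any 1 base, then CCACG), stood upstream of Herpud1 as ATTGGgCCACG, at chr8:94386377-94386387. It also stood in Dnajb11, inside the transcribed part, and in 12 of all genes (0.0444%). The core of another element, the unfolded protein response element (TGACGTGG, whose last bases are the CCACG box on the other strand), stood in Txndc11 and Txndc5 and in 0.714% of all genes. The single boxes are common: CCACG alone stood in 88.2% of the 34 and in 35.5% of all genes, and CCAAT alone in 82.4% and 41.1%. The longer elements hold these boxes, so the shares include their matches. A match describes the letters of a promoter and does not show that a factor was bound.

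The promoters of Hspa5 and Derl3 are given from 200 to 41 bases before the start, because both hold an ERSE while the genes differed widely in the cells described below. Capitals mark the boxes, and in Derl3 they read on the other strand as CGTGG and ATTGG.
Hspa5, chr2:34771890-34772049, plus strand: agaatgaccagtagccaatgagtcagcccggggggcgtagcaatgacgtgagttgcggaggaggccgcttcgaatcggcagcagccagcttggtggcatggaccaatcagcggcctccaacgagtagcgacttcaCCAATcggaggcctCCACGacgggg
Derl3, chr10:75893198-75893357, plus strand: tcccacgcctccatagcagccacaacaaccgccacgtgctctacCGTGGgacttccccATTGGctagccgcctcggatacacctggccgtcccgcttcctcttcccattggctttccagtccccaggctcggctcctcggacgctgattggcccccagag

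The 5 libraries held 9014 to 11791 barcodes and 54715065 to 63497466 UMIs, and 8309 to 10607 cells were kept, with medians of 4259 to 6018 UMIs. Between 109 and 164 barcodes were shared by a pair of libraries. Cells were clustered without the 46 genes, without other genes of the same pathways, and without the segments of immunoglobulin or T cell receptor genes. The classes were named from markers, and the plasma cell-like class from Jchain and Xbp1 together. Jchain, the joining chain of secreted IgM and IgA, stood at 28788 CPM (UMIs of a gene per 1000000 UMIs of the class) in plasma cell-like cells and at 3.66 CPM in follicular cells. Mef2b, a transcription factor of germinal centre B cells, stood at 381 CPM in germinal centre cells and at 9.27 CPM in follicular cells. Libraries are given in the order saline control, then isotype, then anti-CTLA-4, then depleted isotype, then depleted anti-CTLA-4. There were 7, 43, 23, 4 and 9 plasma cell-like cells, 29, 74, 182, 23 and 39 germinal centre B-like cells, and 3913, 4191, 4535, 20 and 21 follicular B-like cells. Activated B-like cells numbered 310, 181 and 259 in the libraries that were not depleted, with 1 cell in each depleted one. Clusters of mixed or unnamed cells were not used. One follicular cluster of 209 cells held 206 from the isotype library. The largest T cell classes were conventional CD4 T cells, with 1553 to 3360 cells a library, and CD8 T cells, with 1793 to 3405.

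The 46 genes together made up 3.42% of all UMIs of plasma cell-like cells under isotype and 3.31% under anti-CTLA-4. The few plasma cell-like cells of the other libraries gave 2.14% under saline control, 1.64% under depleted isotype and 2.42% under depleted anti-CTLA-4. Follicular B-like cells gave 0.502%, 0.485% and 0.485% in the 3 libraries that were not depleted. All 5 plasma values lay above those of the other named classes, and the follicular values lay within a narrow band. Germinal centre B-like cells gave 0.567% to 0.684% over the 5 libraries, and activated B-like cells gave 0.527% to 0.551%. Conventional CD4 T cells gave 0.364% to 0.395%, CD8 T cells 0.350% to 0.385%, and Treg-like cells (the regulatory class that expresses Foxp3) 0.436% to 0.488%. B cell classes thus stood above conventional CD4 and CD8 T cells in every library, while Treg-like cells reached the follicular value under anti-CTLA-4, at 0.488% against 0.485%. Immunoglobulin transcripts took 42.5% of the UMIs of plasma cell-like cells in the isotype library and 61.5% under saline control, against 1.20% and 1.29% in follicular cells. With immunoglobulin genes left out of the total, the plasma share rose to 5.96% and 5.56% in those libraries.

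**Figure D1:**
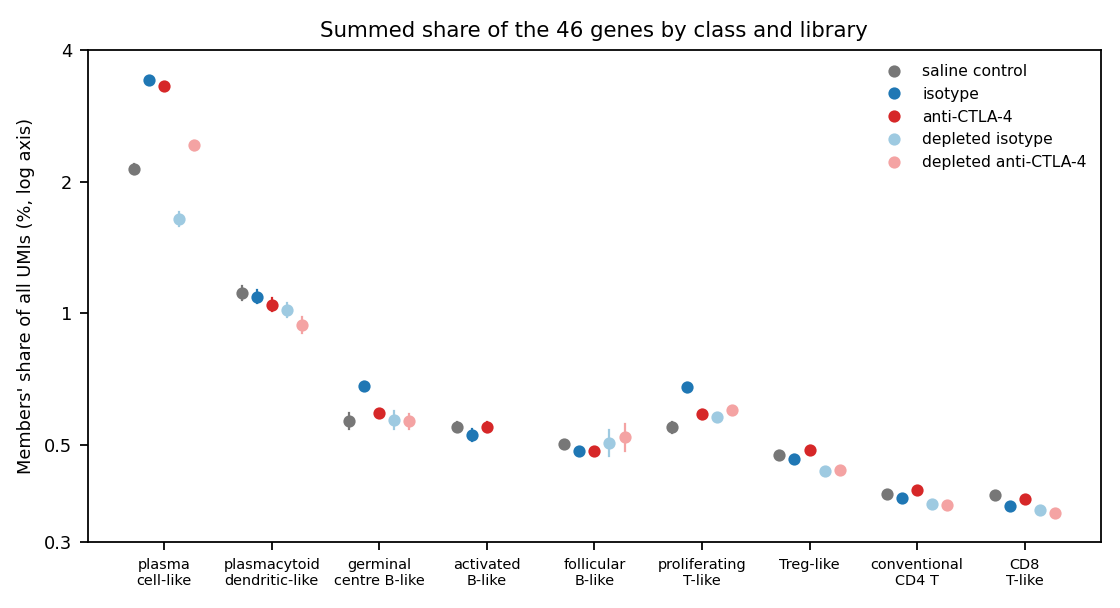
Summed share of the 46 genes among all UMIs (vertical, percent, log axis) for 9 cell classes (horizontal), with 1 point for each library that held at least 4 cells of the class and vertical lines for the 95% counting interval. Plasma cell-like cells lie between 1.64% and 3.42%, above plasmacytoid dendritic-like cells at 0.941% to 1.11%, and all B and T classes lie below 0.7%.

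In plasma cell-like over follicular B-like cells, 41 of the 46 genes were at least 2-fold higher under isotype IgG and 41 with anti-CTLA-4, with none at least 2-fold lower. Among all genes with at least 50 UMIs over both classes, 6.67% and 6.6% were 2-fold higher, while 55.7% and 55.3% were 2-fold lower. The same 41 genes passed in both libraries, where 4.87% of all genes did. The median log2 ratio of the 46 was 2.49 and 2.46, beside medians of -1.15 and -1.17 over all genes. All ratios of plasma cell-like cells share the large immunoglobulin part of the total, which lowers every other gene. Plasma cell-like cells also lay above germinal centre B-like cells, with median log2 ratios of 2.01 and 2.18. Of the measured genes, 40 of 46 and 40 of 45 were at least 2-fold higher there, beside 7.11% and 4.85% of all genes.

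**Figure D2:**
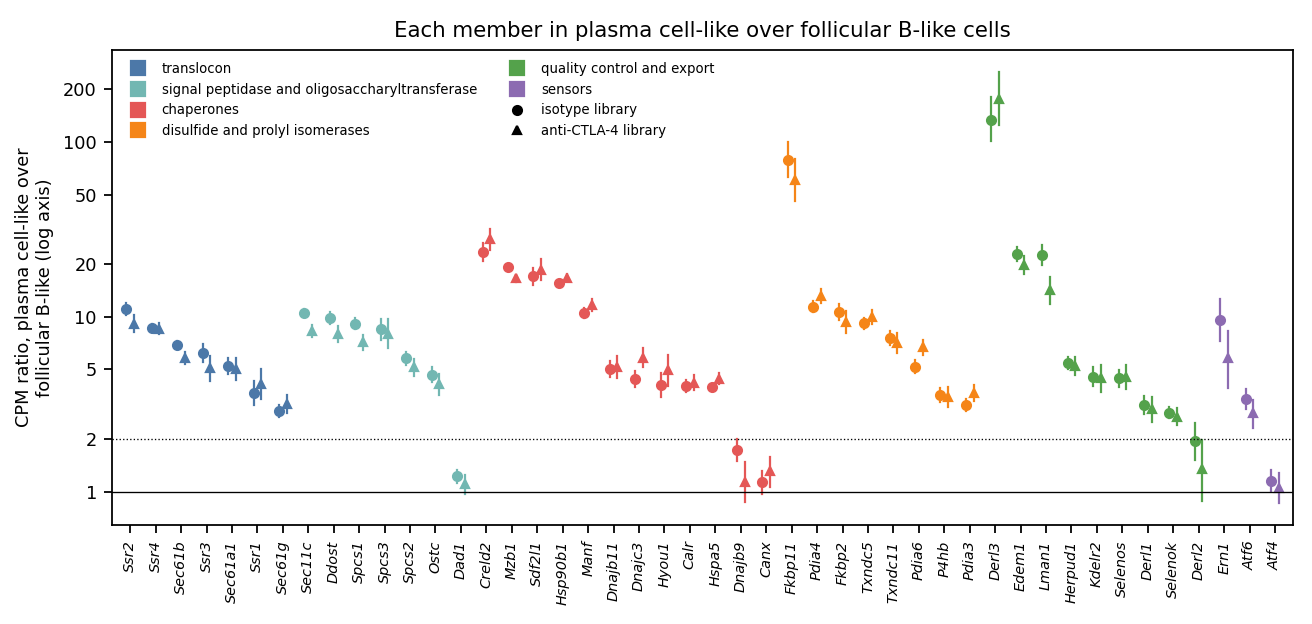
Ratio of CPM in plasma cell-like over follicular B-like cells (vertical, log axis) for each of the 46 genes (horizontal), grouped and coloured by role. Circles are the isotype library, triangles the anti-CTLA-4 library, vertical lines 95% counting intervals, the solid line 1 and the dotted line 2. Derl3 and Fkbp11 stand far above the rest in both libraries, and Dad1, Dnajb9, Canx, Derl2 and Atf4 lie below 2.

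At the membrane gate all 7 translocon genes passed in both libraries. Their ratios in the isotype library ran from 2.90 for Sec61g, a small subunit of the channel, to 11.1 (10.2 to 12.1) for Ssr2, a subunit of the translocon-associated protein complex. Ssr2 stood at 776 CPM in plasma cell-like and 69.8 CPM in follicular cells there, and at 682 and 74.7 CPM under anti-CTLA-4. Of the 7 genes of signal peptide cleavage and N-glycosylation, 6 passed. Sec11c, a catalytic subunit of signal peptidase, had ratios of 10.5 and 8.33. The one that did not was Dad1, a subunit of the oligosaccharyltransferase, at 1.22 (1.12 to 1.33) and 1.10 (0.966 to 1.25).

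Of the 12 chaperones and their partners, 10 passed in each library. Mzb1, a B lineage cochaperone that assists immunoglobulin assembly, stood at 5496 CPM in plasma cell-like and 286.0 CPM in follicular cells of the isotype library, a ratio of 19.2 (18.5 to 19.9). Under anti-CTLA-4 it stood at 4760 and 286.3 CPM, a ratio of 16.6. Hsp90b1, which encodes GRP94, had ratios of 15.6 and 16.8. Hspa5, which encodes BiP, the central chaperone of the lumen, stood at 1389 and 352 CPM, a ratio of 3.95 (3.75 to 4.15), and had 4.44 under anti-CTLA-4. The ratio was thus smaller for Hspa5 than for Hsp90b1 in both libraries. Creld2, an isomerase-like stress-induced protein, had 23.4 and 27.7, and Sdf2l1, a component of the BiP cochaperone complex, 17.0 and 18.6. The lowest were Canx, the lectin chaperone calnexin, at 1.13 (0.975 to 1.31) and 1.31, and Dnajb9, a J-domain cochaperone of BiP, at 1.74 and 1.14.

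All 8 isomerases passed in both libraries. Fkbp11, a prolyl isomerase of secretory cells, stood at 394 CPM in plasma cell-like and 4.97 CPM in follicular cells of the isotype library, a ratio of 79.2 (63.2 to 100). Under anti-CTLA-4 its levels were 258 and 4.28 CPM, a ratio of 60.4. Pdia4, a disulfide isomerase, had 11.4 and 13.2, whereas Pdia3, which works on glycoproteins with calreticulin and calnexin, had 3.14 and 3.66. The gap between Fkbp11 and the other isomerases was therefore wide in both libraries.

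Of the 9 genes of quality control and export, 8 passed. Derl3, a channel component of degradation, had the highest ratio of all 46 genes. It stood at 403 CPM in plasma cell-like cells and 3.02 CPM in follicular cells of the isotype library, a ratio of 134 (101 to 180), and at 396 and 2.25 CPM under anti-CTLA-4, where the ratio was 176 (126 to 252). Its relatives Derl1 and Derl2 had 3.12 and 1.95 in the isotype library, so 1 member of the derlin family stood far apart from the others. Edem1, a mannosidase-like protein of glycoprotein degradation, had 22.9 and 19.7, and Lman1, a cargo receptor on the way to the Golgi, 22.6 and 14.1. Derl2 was the one below the limit, at 1.95 and 1.34.

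Of the 3 sensors and transcription factors, Ern1 and Atf6 passed and Atf4 did not. Ern1 stood at 66.0 and 6.87 CPM in the isotype library, a ratio of 9.60 (7.26 to 12.7), and at 55.0 and 9.51 CPM under anti-CTLA-4, a ratio of 5.79. Atf6 had 3.38 and 2.80. Atf4, the transcription factor made when PERK or other kinases slow translation, had 1.16 (1.01 to 1.32) and 1.05 (0.858 to 1.28). With immunoglobulin genes out of the total, Atf4 came to 1.99 and 1.83, Canx to 1.95 and 2.27, and Dad1 to 2.10 and 1.91.

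The 85 other genes of the same pathways moved less. Both lists were chosen with earlier results of these data known, so the contrast between them is a description and not independent support. Of those measured, 40 of 80 and 39 of 79 were at least 2-fold higher in plasma cell-like cells and 6 were lower in each library, with medians of 1.00 and 0.98. Chac1, a target of the ATF4 branch that breaks down glutathione, stood at 42.1 CPM in plasma cell-like cells of the isotype library, from 60 UMIs, and at 0.168 CPM in follicular cells, from 3 UMIs, a ratio of 251 (82.0 to 1253). Under anti-CTLA-4 it rested on 31 and 2 UMIs, a ratio of 421 (107 to 3633). Sec24d, a coat protein of vesicles that leave the endoplasmic reticulum, had 71.2 (49.0 to 106) and 39.3. Xbp1 stood at 1556 and 43.0 CPM in the isotype library, a ratio of 36.2, and had 24.7 under anti-CTLA-4. It was one of the markers that named the plasma cell-like class, so its high level there is not a separate result. Spliced and unspliced Xbp1 cannot be told apart in these counts. Ddit3, which encodes the stress factor CHOP, had 0.845 (0.613 to 1.14) and 0.686 (0.390 to 1.12). Its direction turned with the scale, to 1.45 and 1.19 with immunoglobulin left out. Named after their values were seen, Ppp1r15a, the phosphatase subunit that restores translation, had 0.376 and 0.421, and Eif2ak3, which encodes PERK, had 0.430 and 0.393. Both stayed below 1 with immunoglobulin left out.

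Among the genes with an entry in the promoter table, those with an exact ERSE match did not stand apart from those without one in this comparison. In the isotype library, 7 of the 8 genes with an ERSE were 2-fold higher, with a median log2 ratio of 2.26 and a range from 1.13 for Canx to 134 for Derl3. Of the 26 genes with an entry and no ERSE, 22 were, with a median of 2.58. Under anti-CTLA-4 the medians were 2.64 and 2.38, in the other order. The 12 genes with no entry could not be searched, and all 12 were 2-fold higher in both libraries, with medians of 2.74 and 2.67. The part of the element in the ratios was not tested. Fkbp11, with the second highest ratio, held neither an ERSE, an ERSE-II nor the TGACGTGG core in its window.

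The levels of the leading genes also varied among the libraries, over small numbers of plasma cell-like cells. Over the 5 libraries, in the order above, Derl3 stood at 264, 403, 396, 259 and 330 CPM. Hspa5 stood at 1021, 1389, 1569, 642 and 1095 CPM, and Hsp90b1 at 1795, 4155, 4812, 952 and 1695 CPM. On totals of all UMIs, the isotype and anti-CTLA-4 libraries were the highest for these 3 genes. The same held for Mzb1, with 2113, 5496, 4760, 1470 and 3353 CPM. It did not hold for Xbp1, with 1473, 1556, 1128, 1104 and 1272 CPM. Immunoglobulin genes took 61.5%, 42.5%, 43.1%, 59.3% and 48.1% of the plasma UMIs in the same order, and these totals include them. With immunoglobulin left out, Hspa5 stood higher under saline control than under isotype, and Derl3 differed little among the libraries. For Hsp90b1 and Mzb1 the isotype and anti-CTLA-4 libraries stayed the highest. Only the isotype and anti-CTLA-4 libraries held at least 20 such cells, so only these were compared. Of the 46 genes, 2 differed by 1.5-fold, both lower under anti-CTLA-4, while 18.8% of all genes differed by 1.5-fold either way. They were Fkbp11 (258 against 394 CPM, 0.656, 0.549 to 0.781) and Dnajb9 (96.3 against 149 CPM, 0.648, 0.481 to 0.862). Without the cell with most UMIs of the 46 genes on each side, Dnajb9 had 0.690 and no longer passed, Fkbp11 had 0.604, and Lman1 passed with 0.626. Hspa1a also differed, at 77.98 against 214 CPM, as did Dnajb1, at 128 against 263 CPM, and their part was not tested.

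The libraries also differed in the antibody class of their plasma cell-like cells, read from the constant gene with most UMIs. In the 65 cells that had a receptor contig in the receptor libraries, both readouts named the same constant gene. There were 5 IgA and 2 IgG cells under saline control, 6 IgA, 29 IgG and 8 IgM under isotype, and 3 IgA, 17 IgG and 3 IgM under anti-CTLA-4. The depleted isotype library held 2 IgA, 1 IgG and 1 IgM cell, and the depleted anti-CTLA-4 library 6 IgA, 1 IgG and 2 IgM. IgA cells were thus the largest group in the libraries with the lowest shares of the 46 genes. Over all libraries the median share of the 46 genes was 1.54% in 22 IgA cells (lowest 0.533%, highest 5.07%), 3.58% in 50 IgG cells (0.638% to 6.85%) and 3.55% in 14 IgM cells (1.21% to 5.66%). The ranges overlapped widely. Immunoglobulin transcripts took a median of 57.3% of the UMIs of IgA cells, 42.6% of IgG cells and 39.2% of IgM cells. With these left out, the medians came closer, to 4.03%, 6.06% and 5.67%. Mki67, a gene of dividing cells, stood at 29.8 CPM in IgA cells, 216 CPM in IgG cells and 272 CPM in IgM cells. Its part in the difference was not tested, and library, class and cell number cannot be told apart here.

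**Figure D3:**
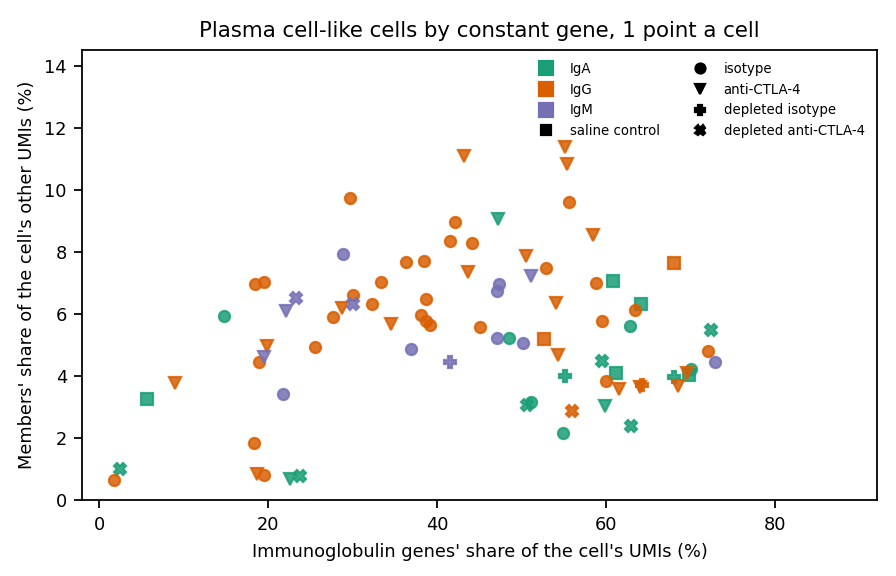
Each of the 86 plasma cell-like cells by the share of its UMIs from immunoglobulin genes (horizontal, percent) and the share of its other UMIs from the 46 genes (vertical, percent), coloured by antibody class and marked by library. Most cells lie above 2% on the vertical axis at any immunoglobulin share, and 7 cells lie below it.

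Within the isotype library, where each class had at least 6 cells, fewer than the 20 a side asked of the other comparisons, single genes did not follow the median. On totals without immunoglobulin, Mzb1 stood at 3759 CPM in IgA and 10602 CPM in IgG cells, a ratio of 0.355 (0.310 to 0.403). Fkbp11 had 0.141 (0.0564 to 0.293), from 7 UMIs in 6 IgA cells. Hspa5 had 0.945 (0.792 to 1.12). Of all UMIs, Hspa5 stood at 951 CPM in the 6 IgA cells but at 584 CPM in the 5 of them with a receptor contig. Its nearly level ratio thus leaned on the cell without a contig. Derl3 stood higher in IgA cells, at 1.52 (1.16 to 1.97). The highest ratio was that of Txndc5, a disulfide isomerase, at 3.42 (2.90 to 4.02), and it had 3.70 over all libraries. It was as high in IgM over IgG cells of the isotype library, at 3.53 (3.12 to 4.00). Herpud1 had 1.86 (1.51 to 2.27) in IgA over IgG cells. The median of the 46 was -0.44 on the log2 scale, beside -0.45 over all genes. Over all libraries Mzb1 had 0.415, Hsp90b1 0.542 and Fkbp11 0.681, while Derl3 had 1.10 and Dnajb9 1.61. Low Fkbp11 was not a mark of every IgA cell: it stood at 398 CPM of all UMIs in the 5 IgA cells under saline control and at 45.0 CPM in the 6 under isotype.

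Among the plasma cell-like cells, 7 gave the 46 genes less than 2% of their UMIs outside immunoglobulin, from 0.649% to 1.85%, and the next cell gave 2.16%. Of these, 5 had under 6000 UMIs and under 10 Jchain UMIs. They were 3 cells of the isotype, 2 of the anti-CTLA-4 and 2 of the depleted anti-CTLA-4 library, 3 IgA and 4 IgG, and held 2.7% of the plasma UMIs. The summed ratios above therefore rest almost entirely on the remaining ones.

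Germinal centre B-like cells lay slightly above follicular B-like cells across the list in the isotype and anti-CTLA-4 libraries, and few genes passed 2-fold. The median log2 ratio was 0.11, 0.50 and 0.31 under saline control, isotype IgG and anti-CTLA-4, beside 0.05, 0.02 and 0.04 over all genes. At least 2-fold higher were 5, 6 and 5 of the 46 genes, beside 13.3%, 13.5% and 13.2% of all genes. The counts of higher genes lie near those shares. At least 2-fold lower were 2 in each library, fewer than the 16.5%, 14.9% and 12.9% of all genes. One of the 2 was Fkbp11 each time, from 0 UMIs, and the other was Spcs3, Ern1 or Pdia4. Under saline control the depth does not show a lower Fkbp11, as described below. Passing in all 3 libraries were Derl3, Edem1, Sdf2l1 and Mzb1, 4 of 46 beside 7.02% of all genes.

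Derl3 stood at 19.7, 44.8 and 19.5 CPM in germinal centre cells and at 3.06, 3.02 and 2.25 CPM in follicular cells, ratios of 6.45 (2.65 to 13.7), 14.9 (10.2 to 21.7) and 8.68 (5.65 to 13.4). Without the germinal centre cells that had at least 50 Jchain UMIs, 3 cells under isotype IgG and 2 with anti-CTLA-4, the last 2 ratios of Derl3 were 7.91 (4.94 to 12.5) and 8.76 (5.69 to 13.6), and the counts of genes past 2-fold were the same. Edem1 had 2.36, 3.15 and 3.34, Sdf2l1 2.03, 3.53 and 2.50, and Mzb1 2.36, 2.38 and 2.53. Herpud1, a membrane protein of the degradation complex, had 2.23, 1.79 and 2.54. Xbp1, on the list of other genes, had 1.64, 2.12 and 2.28. Below 1 in all 3 libraries, and named after their values were seen, were Dad1 (0.603, 0.672 and 0.639) and Selenok, a selenoprotein of the membrane (0.777, 0.722 and 0.775). Under anti-CTLA-4 the lowest measured genes besides Fkbp11 were Pdia4 at 0.486 (0.394 to 0.594) and Ern1 at 0.504 (0.263 to 0.885). In the isotype library Pdia4 had 0.944 (0.774 to 1.14), and 0.668 (0.524 to 0.842) without the cells high in Jchain.

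Fkbp11 had 0 UMIs in all 347 germinal centre B-like cells of the 5 libraries, among 5311211 UMIs. A count of 0 was taken to allow up to 3 UMIs, or 0.565 CPM. Each fold below divides the level of another class by this limit, without the counting error of that class. Over all libraries the level of Fkbp11 was 571-fold the limit in plasma cell-like cells. It was 8.52-fold the limit in follicular cells, where 1.88% of cells had a UMI. Without the anti-CTLA-4 library, which held 2713491 of the 5311211 UMIs, the folds were 297-fold and 4.40-fold. Within single libraries the folds for plasma cell-like cells were 51.4-fold, 190-fold and 234-fold under saline control, isotype IgG and anti-CTLA-4. For follicular cells they were 2.40-fold and 3.87-fold in the last 2. Under saline control the follicular 5.24 CPM lay under the limit of 7.40 CPM. The intervals of the germinal centre over follicular ratio, which cover both classes, reached up to 0.523 under isotype IgG and 0.326 under anti-CTLA-4. They thus allow smaller differences than 2.40-fold and 3.87-fold. At the follicular level 25.6 UMIs would have fallen in the germinal centre cells. In conventional CD4 T cells 0.161% of cells had a UMI of Fkbp11. Their median depth was 5164 UMIs, against 3755 in follicular cells, and the follicular share lay above theirs. Both shares pool all libraries, and the depleted ones held 3360 and 3207 of the T cells but 20 and 21 follicular cells. The T cell share may therefore understate the background in the libraries that held most follicular cells.

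**Figure D4:**
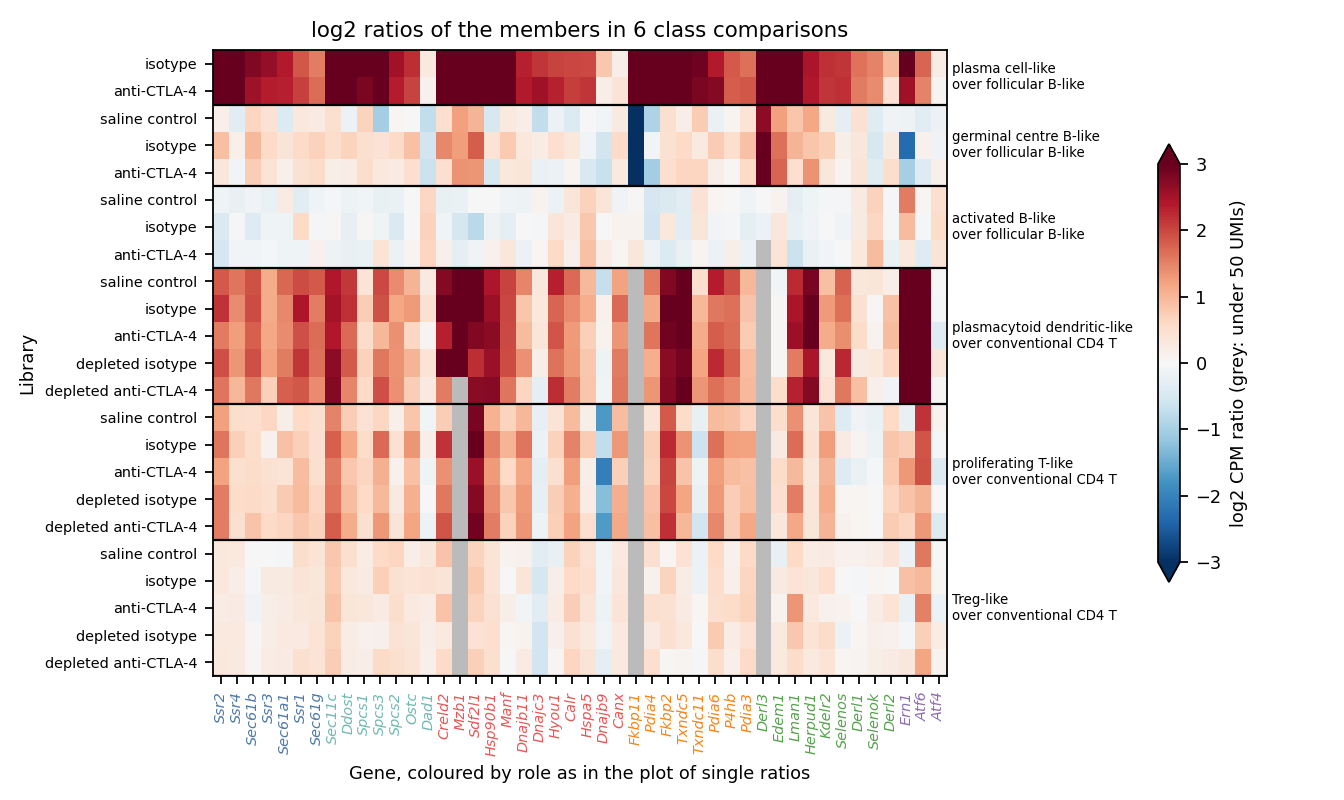
log2 ratio of CPM (colour, cut at 3 in either direction) for the 46 genes (horizontal, ordered and coloured by role) in 6 class comparisons, with 1 line for each library in which the comparison was made (vertical). Grey marks genes under 50 UMIs, and a gene at 0 in the first class is drawn at the lower end. The plasma comparison is high across all roles, the germinal centre comparison is high in Derl3, Edem1, Sdf2l1 and Mzb1, and the activated comparison is close to 0 for most genes.

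Activated B-like cells, the class with Myc, Nr4a1 and Cd83, hardly differed from follicular cells across the list. The median log2 ratio was -0.06, -0.05 and -0.05 under saline control, isotype IgG and anti-CTLA-4, beside -0.15, -0.16 and -0.14 over all genes. With median-ratio size factors, chosen after seeing the data, the first 2 became 0.050 and 0.032, so their sign rests on the scaling. Past 2-fold in either direction was 1 of 46 under saline control and none of 46 and none of 45 in the others, beside 7.77%, 13.1% and 10.2% of all genes. That gene was Ern1, at 2.93 (1.73 to 4.75) from 21 UMIs, and it had 1.93 (0.904 to 3.67) and 1.24 (0.609 to 2.28) in the others. A small step recurred in 4 genes, which were at least 1.25-fold higher in all 3 libraries, beside 3.48% of all genes. Hspa5 stood at 622, 617 and 651 CPM in activated and 382, 352 and 354 CPM in follicular cells, ratios of 1.63, 1.75 and 1.84. Selenok had 1.62, 1.54 and 1.92, Dad1 1.53, 1.62 and 1.55, and Atf4 1.41, 1.47 and 1.31. Dad1 and Selenok were therefore high in activated and low in germinal centre cells. The lowest genes under saline control were Pdia4 (0.704), Fkbp2, a prolyl isomerase (0.745), and Ssr1 of the translocon (0.785).

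Ddit3 and Ppp1r15a were higher in the activated cells of all 3 libraries, with 1.46, 1.91 and 1.78 and with 1.94, 1.83 and 2.28. Xbp1 had 1.01, 0.710 and 0.940. Genes that handling of tissue is known to induce also differed: Fos stood at 925, 675 and 818 CPM in activated and 245, 248 and 192 CPM in follicular cells, while Hspa1a was lower, at 246, 561 and 560 against 591, 1220 and 660 CPM. Their part in the result was not tested. The steps shrank when the class was drawn otherwise. Under saline control Hspa5 went from a log2 ratio of 0.70 to 0.22 with the pathway genes kept for clustering, and Atf4 from 0.49 to 0.08 with finer clusters.

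In conventional CD4 and CD8 T cells the list stood lower than in B cells, and proliferating T-like cells stood above them and above follicular B-like cells. Proliferating T-like cells over conventional CD4 T cells had median log2 ratios of 0.59, 0.83, 0.71, 0.82 and 0.75 in the 5 libraries, in the order given above, beside 0.07, 0.08, 0.10, 0.05 and 0.03 over all genes. Of 43 genes, 7, 20, 13, 15 and 17 were at least 2-fold higher, beside 12.6%, 16.4%, 12.5%, 13.9% and 13.7% of all genes. At 1.25-fold, 29 of 43 were higher in all 5 libraries, beside 22.1% of all genes. At 2-fold, 6 were, beside 6.99% of all genes: Sdf2l1 (6.05 to 11.7), Hsp90b1, Fkbp2, Sec11c, Ssr2 and Atf6. Dnajb9 went the other way, from 0.242 to 0.602. The class held 35 to 95 cells a library, with median depths of 17306 to 23853 UMIs, against 4630 to 5464 in conventional CD4 T cells. The class was named from Mki67 without dividing it into CD4, CD8 and regulatory cells, so it may mix them, while the reference holds CD4 T cells only. The part of depth and of this make-up in the result was not tested.

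Treg-like cells over conventional CD4 T cells had medians of 0.28 to 0.33, beside 0.11 to 0.16 over all genes. Past 2-fold in either direction were 1, 0, 2, 0 and 1 of 43 genes, beside 11.2%, 10.5%, 11%, 11.8% and 12.7% of all genes. At least 1.25-fold higher in all 5 libraries were 10 of 43, beside 15% of all genes. They included Sec11c (1.61 to 1.80), Sdf2l1 (1.35 to 1.72), Pdia3 (1.35 to 1.59), Calr, which encodes calreticulin (1.37 to 1.67), and Hsp90b1 (1.32 to 1.41). Dnajc3, a BiP cochaperone that also restrains PERK, had 0.667 to 0.805.

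Plasmacytoid dendritic-like cells, interferon-secreting cells named from Siglech and Bst2, were the class nearest to plasma cells. They gave the 46 genes 1.11%, 1.09%, 1.05%, 1.02% and 0.941% of UMIs over 21 to 32 cells a library. Over conventional CD4 T cells, 31, 32, 30, 32 and 28 genes were at least 2-fold higher, of 44 measured in the first 4 libraries and 43 in the last, beside 16.2%, 15.5%, 16%, 16.3% and 18.3% of all genes. In all 5 libraries 26 of 43 passed, beside 7.53% of all genes. Ern1 stood at 104 to 129 CPM, against 39.4 to 66.0 CPM in plasma cell-like cells. With immunoglobulin left out of the total the ranges met, at 104 to 129 and 86.7 to 116 CPM. Atf6 had ratios of 11.4 to 20.2 over CD4 T cells, and Hsp90b1 5.38 to 6.62. Mzb1 stood at 150 to 214 CPM, below follicular B cells. Edem1, high in plasma and germinal centre cells, had 0.948 to 1.43. These ratios have another reference than the plasma ratios above and are not compared with them.

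Between the isotype and saline control libraries, and between the anti-CTLA-4 and isotype libraries, the list was nearly level in the large classes. In follicular B-like cells none of the 46 genes differed by 1.5-fold between isotype and saline control (0.827 to 1.25) or between anti-CTLA-4 and isotype (0.746 to 1.38), beside 3.78% and 3.05% of all genes. In activated B-like cells 3 of 41 and 3 of 39 did, beside 11.3% and 9.61%. Ssr1 was higher and then lower in these, with 1.81 (1.18 to 2.79) and 0.655 (0.416 to 1.03), as was Fkbp2, with 1.52 (0.979 to 2.35) and 0.559 (0.336 to 0.919). Sdf2l1 had 0.540 (0.274 to 1.00) in the first and Manf, a secreted chaperone-like factor, 1.56 (1.17 to 2.11) in the second. In 3 of these 6 values (Fkbp2 and Sdf2l1 in the first, Ssr1 in the second) the interval reached 1. The 2 comparisons share the isotype library, whose 181 activated cells are the fewest.

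In T cells 5 comparisons were made. They were isotype against saline control, then anti-CTLA-4 against isotype, then depleted isotype against isotype. Next came depleted anti-CTLA-4 against anti-CTLA-4, and last the 2 depleted libraries against each other. In CD8 T cells none of 43 genes differed by 1.5-fold in any of them, beside 2.88%, 2.76%, 3.55%, 3.4% and 2.26% of all genes. In conventional CD4 T cells 1 did, beside 3.76%, 3.38%, 4.1%, 4.07% and 2.34% of all genes. It was Ern1, at 13.9 against 8.65 CPM under anti-CTLA-4 over isotype, with a ratio of 1.61 (1.20 to 2.17). In the depleted libraries Ern1 stood at 9.41 CPM with isotype IgG and 9.37 CPM with anti-CTLA-4, so the difference was not seen there. Whether these comparisons differ from each other was not tested. In Treg-like cells 0, 2, 1, 1 and 0 differed, beside 6.21%, 5.81%, 5.7%, 4.53% and 3.95%. They were Lman1 (1.72, 1.16 to 2.59) and Atf6 (1.65, 1.05 to 2.64) under anti-CTLA-4 over isotype. Ern1 had 0.577 (0.344 to 0.969) under depleted isotype over isotype, and Lman1 0.666 (0.489 to 0.908) under depleted anti-CTLA-4 over anti-CTLA-4.

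Germinal centre B-like cells showed the most differences among libraries, and a few cells carried part of them. From saline control to isotype 13 of 44 genes were 1.5-fold higher and none lower, with a median log2 ratio of 0.40. Of all genes, 9.01% were higher and 11.0% lower. Pdia6, a disulfide isomerase, stood at 181 against 104 CPM, a ratio of 1.75 (1.26 to 2.48), Hsp90b1 at 353 against 232 CPM, 1.52 (1.22 to 1.92), and Dnajc3 at 91.7 against 46.9 CPM, 1.96 (1.20 to 3.35). From isotype to anti-CTLA-4, 6 of 44 were 1.5-fold lower and none higher, with a median of -0.23. Of all genes, 11% differed either way, with 561 of 7608 higher and 274 lower, so the list went against the more common direction. Derl3 had 0.436 (0.297 to 0.636), Pdia4 0.475 (0.360 to 0.624) and Creld2 0.478 (0.357 to 0.638). Both comparisons share the isotype library, which was the high one in each. Its germinal centre cells were also the deepest, with a median of 17917 UMIs against 9458 under saline control and 13277 under anti-CTLA-4. The median mitochondrial share of all its cells was 1.00%, against 1.77% and 2.09%. Hspa1a stood at 432, 294 and 207 CPM in germinal centre cells under saline control, isotype IgG and anti-CTLA-4. The part of these in the results was not tested.

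Cell by cell, the median share of the 46 genes was 0.488%, 0.549%, 0.554%, 0.525% and 0.496% in the 5 libraries, and the highest cell gave 0.790%, 3.00%, 0.945%, 0.836% and 0.827%. In the isotype library 6 of 74 cells lay above every cell of the other libraries. Cells with at least 50 UMIs of Jchain numbered 0, 3, 2, 0 and 0. Without these, 5 genes instead of 13 were higher from saline control to isotype, with a median of 0.22, and 1 instead of 6 was lower under anti-CTLA-4, with a median of -0.20. Hsp90b1 then had 1.16 (0.925 to 1.48) from saline control to isotype, and under anti-CTLA-4 Derl3 had 0.827 (0.522 to 1.33), while Creld2 kept 0.636 (0.461 to 0.879). Dnajc3 had 1.94 (1.19 to 3.33) from saline control to isotype without those cells, close to its value with them. Leaving out those cells was chosen after seeing the data.

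**Figure D5:**
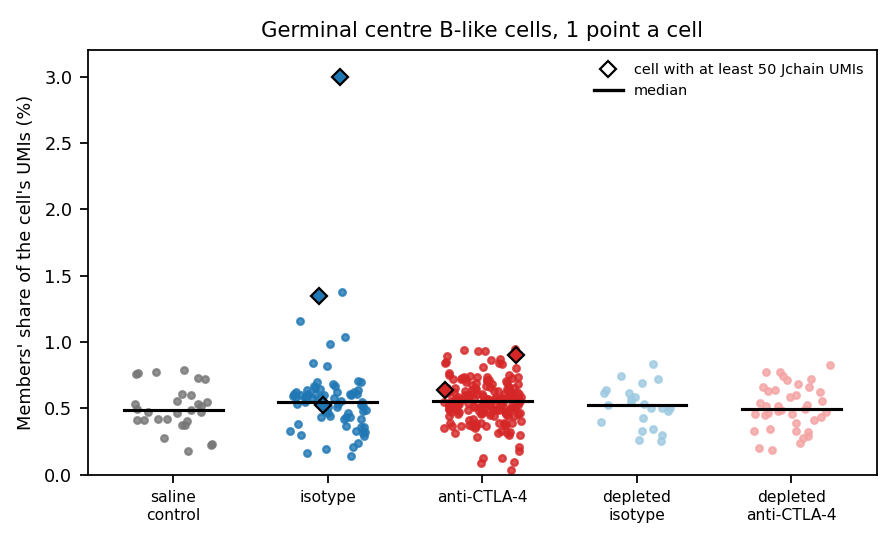
Share of each germinal centre B-like cell's UMIs from the 46 genes (vertical, percent) by library (horizontal), with 1 point a cell, black lines at the median and diamonds for cells with at least 50 Jchain UMIs. The medians lie between 0.488% and 0.554%, and 6 cells of the isotype library lie above all cells of the others, up to 3.00%.

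Free RNA in droplets can give a cell UMIs of genes it does not express, so the shares of cells with a UMI are set beside those of T cells. Derl3 was seen in 96.5% of plasma cell-like cells (45.9% after thinning each cell to 2000 UMIs), 15.9% of germinal centre cells (3.22%), 0.923% of follicular cells (0.436%) and 0.238% of conventional CD4 T cells (0.104%). Mzb1 was seen in 59.6% of follicular cells and 0.356% of CD4 T cells. All these shares pool the libraries. The depleted libraries held many of the T cells and few follicular cells, so the T cell shares may understate free RNA in the others. Median depths were 32742 UMIs in plasma cell-like, 12877 in germinal centre, 3755 in follicular and 5164 in CD4 T cells. Thinning left out 1, 5, 526 and 214 shallower cells of these classes. The order of these 4 classes for Derl3 was the same with and without thinning. In Treg-like cells 1.06% had a UMI of Derl3, near the follicular share, so the follicular level under its ratios is close to that of a class outside the B lineage.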

How the data were processed

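Per the submitters' processing notes, reads were handled with bcl2fastq 2.20.0 and Cell Ranger on the mouse build mm10, and per the file headers Cell Ranger was version 7.0.1. The deposited values are raw UMI counts per gene and barcode, called by the authors. Barcodes with at least 500 genes and at most 10% mitochondrial UMIs were kept, and the highest Scrublet scores, 0.8% per 1000 barcodes, were removed. Cells were clustered with scanpy 1.11.5 and leidenalg 0.10.2 (2000 variable genes, 30 components, 15 neighbours, resolution 1). UMIs were summed per class and library. Ratios of CPM have exact conditional binomial intervals, levels Poisson and shares Clopper-Pearson intervals (95%, scipy 1.17.1). The ratios were tested on simulated data. Genes with at least 50 UMIs over both sides were measured, a side needed 20 cells (not for plasma cells by antibody class), and a gene counted as differing at 2-fold between classes and 1.5-fold between libraries.

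The members and lists were chosen with earlier results of these data known. Named genes were the 10 highest and 5 lowest plasma ratios under isotype, the 5 highest and 3 lowest germinal centre ratios under anti-CTLA-4 and activated ratios under saline control, up to 3 genes each way per library comparison, and Hspa5, Mzb1, Derl3, Atf4, Atf6 and Ern1. Of the other pathway genes these were Xbp1, Ddit3 and the highest plasma ratios. Further genes, named after their values were seen, mark the ends of a role's range or recur in every library. Alternatives concerned scaling, minimum UMIs, doublets, clustering, mixed cells and single cells.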

Additional observations from a re-analysis of the deposited data

How the results depend on the processing

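Of 409 recomputed medians under the alternatives, 386 lay inside an interval around the reported median and 23 outside. That interval, not printed here, was drawn from the ranked ratios of the measured genes. It shows the spread between genes and not counting error. With immunoglobulin genes out of the total, the plasma medians against follicular cells rose to 3.27 (isotype) and 3.26 (anti-CTLA-4), and the plasma shares to 5.56%, 5.96%, 5.83%, 4.04% and 4.66% in the library order of the report. The middle follicular share was then 0.509%. Means over cells gave plasma shares of 2.27%, 3.38%, 3.17%, 1.75% and 2.00%, and middle shares of 0.518% (germinal centre), 0.497% (follicular) and 0.558% (proliferating T). Median-ratio size factors, chosen for the class comparisons after seeing the data, gave plasma medians of 3.35 and 3.10, activated medians of 0.050 (saline control) and 0.032 (isotype), and 1 germinal centre gene 2-fold higher under saline control in place of 5. They moved the library medians to -0.17 in plasma cell-like cells, -0.045 in follicular cells (anti-CTLA-4 against isotype), 0.020, 0.0055 and -0.038 in CD4 T cells (isotype against saline control, anti-CTLA-4 against isotype, and between the depleted), 0.031 in Treg-like cells (isotype against saline control), and 0.032 and -0.041 in CD8 T cells (anti-CTLA-4 and depletion, each against isotype).

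In germinal centre cells the counts between libraries moved. From saline control to isotype, 5 genes in place of 13 were higher without doublet removal, and 5 without cells of at least 50 Jchain UMIs. From isotype to anti-CTLA-4, in place of 6 lower genes there were 3 without doublet removal (median -0.092), 3 without the top cell and 1 without the Jchain cells. Without doublet removal the activated median for anti-CTLA-4 against isotype was 0.17, and 2 values reversed on the log2 scale: Hsp90b1 to -0.24 (germinal centre) and Fkbp2 to -0.22 (activated), both isotype against saline control. Ssr1 reversed to 0.31 in activated cells (anti-CTLA-4 against isotype) with the pathway genes kept for clustering. The cause was not tested. No paired analysis was possible because each group had 1 library, and alternatives were not run for classes under 20 cells a side. Class size limits the precision, most for plasma and germinal centre cells.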

Other observations

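Few follicular B-like cells were left after anti-CD20, 20 under depleted isotype and 21 under depleted anti-CTLA-4. Of these, 11 and 12 fell in 1 cluster of the class, which held 210 of 4191 and 418 of 4535 follicular cells in the matching libraries that were not depleted, so the class is made up differently in each group. Mzb1 stood at 520 and 541 CPM, against 286.0 and 286.3 CPM without depletion, ratios of 1.82 (1.45 to 2.26) and 1.89 (1.49 to 2.36). Single genes went both ways: Txndc5 had 0.399 (0.146 to 0.870) and 0.596 (0.257 to 1.18), and Hsp90b1 0.987 (0.711 to 1.34) and 0.636 (0.415 to 0.933). The summed share of the 46 genes was 0.506% and 0.522%, close to the follicular values without depletion.

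Germinal centre B-like cells remained in the depleted libraries, with 23 and 39 cells. Over the matching libraries that were not depleted, the median log2 ratio of the genes was -0.33 and -0.15, beside -0.05 and -0.07 over all genes. Hsp90b1 stood at 132 and 137 CPM, against 353 and 205 CPM, and the 353 CPM include the 3 isotype cells with at least 50 Jchain UMIs. Under anti-CTLA-4 other genes were higher with depletion, such as Dnajb9 at 1.91 (1.33 to 2.69) and Atf6 at 1.78 (1.22 to 2.53), while under isotype IgG they had 1.06 (0.607 to 1.76) and 0.536 (0.259 to 1.00).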
